A study of Homo sapiens with 6 samples.

Results

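The miR-125 family comprises the human counterparts of lin-4, the miRNA that times larval development in Caenorhabditis elegans. All mature arms of the family that carry a listed miR-125a or miR-125b name were examined, which gave 5 members of the 2576 mature miRNAs in the count tables: hsa-miR-125a-5p, hsa-miR-125a-3p, hsa-miR-125b-5p, hsa-miR-125b-1-3p and hsa-miR-125b-2-3p (the species prefix is left out below). The members were selected by name and not by any measured value. They were compared between MIO-M1 cells, an established Müller glia line derived from human retina, and the extracellular vesicles (EV) that these cells secrete, with the purpose of describing how the miRNA content of EV relates to that of the cells. Wild-type MIO-M1 cultures were grown in DMEM with 10% foetal calf serum and antibiotics. The whole cell group held 3 libraries of total cellular RNA from passages 22, 24 and 26 (replicates 1, 2 and 3), and the EV group held 3 libraries of RNA from EV of passages 23, 25 and 27. Each group therefore represents repeated passages of 1 line, and no culture gave both a cell and an EV library. For EV, the labels describe cultures at 80% confluence that were washed 5 times in particle-depleted saline and kept for 24 h without serum. The medium was then centrifuged in several rounds. Labels of the whole cell libraries give the same 5 washes and 24 h, so these steps are not a labelled difference between the groups. The methods of the study give a longer conditioning time in vesicle-depleted medium, fewer washes, a sucrose cushion and RNase treatment of intact EV. Cell RNA was extracted with the RNeasy kit and EV RNA with the Total Exosome RNA Isolation Kit, so that the fraction and the extraction kit cannot be told apart. All libraries were made with the QIAseq miRNA kit.

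A miRNA hairpin is cut by Drosha and then Dicer to leave a duplex of a 5p and a 3p arm, of which the guide strand is loaded into Argonaute and the passenger strand is usually degraded. Bases 2 to 8 of the loaded strand, the seed, pair with target mRNAs. In the miR-125 family the 5p arm is the usual guide. miR-125 is known to repress LIN28 and, with let-7 and miR-9, to time the passage of retinal progenitors to late-born cell types, and miR-125b is abundant in Müller glia. The 3 human hairpins each lie near a miR-99 or miR-100 gene and a let-7 gene, an arrangement shared by many animals.

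The sequences of both guide strands and of miR-4319, the only other miRNA that shares their seed among those in the tables with a RefSeq sequence, are given here 5′ to 3′ because they show how little separates the guide strands from each other. Capitals mark the seed, and all sequences were taken from RefSeq (GRCh38.p14).
miR-125a-5p: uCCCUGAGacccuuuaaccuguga
miR-125b-5p: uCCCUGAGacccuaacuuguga
miR-4319: uCCCUGAGcaaagccac
The guide strands were identical over their first 13 bases. Aligned over their whole length they had 21 identical bases, 1 mismatch and 2 gaps. miR-4319 had 0 counts in all 6 libraries.

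The passenger strands are shown because, unlike the guide strands, they do not share a seed and because they tell the miR-125b genes apart.
miR-125a-3p: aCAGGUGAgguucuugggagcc
miR-125b-1-3p: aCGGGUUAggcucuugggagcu
miR-125b-2-3p: uCACAAGUcaggcucuugggac
These 3 arms carried 3 different seeds, and no other miRNA in the tables with a RefSeq sequence had any of them. miR-125a-3p and miR-125b-1-3p had 18 identical bases and 4 mismatches with no gap, whereas miR-125b-1-3p and miR-125b-2-3p had 17 identical bases, 3 mismatches and 4 gaps. Among short motifs that have been linked to RNA sorting, sought as letters on the RNA strand only, CCCU was found in both guide strands, GGAG in miR-125a-3p and miR-125b-1-3p, and GGCU in miR-125b-1-3p and miR-125b-2-3p. For comparison, CCCU was present in 12.1%, GGAG in 15.8% and GGCU in 12.5% of the 2262 mature miRNAs in the tables that had a RefSeq sequence. Among the 390 of these past the filter on CPM described below, the shares were 10.8, 10.5 and 14.4%. The members are related in sequence, and an excess of any motif was not tested.

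In GRCh38, miR-125a-5p lies at chr19:51693268-51693291 and miR-125a-3p at chr19:51693306-51693327, both on the plus strand. Their gene, MIR125A, sits in an intron of SPACA6 on the same strand and overlaps an exon of the antisense transcript SPACA6P-AS. miR-125b-5p is encoded at chr11:122099809-122099830 on the minus strand (MIR125B1, in an intron of the long non-coding RNA gene MIR100HG) and at chr21:16590253-16590274 on the plus strand (MIR125B2, in an intron of MIR99AHG). The count tables held 1 row for miR-125b-5p that joined both genes, so its reads were not divided between them. The passenger strands are unique to each gene: miR-125b-1-3p lies at chr11:122099769-122099790 on the minus strand and miR-125b-2-3p at chr21:16590290-16590311 on the plus strand.

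The 6 libraries held between 396025 and 3990900 counts. The whole cell libraries had counts for 586, 1058 and 811 miRNAs and the EV libraries for 431, 427 and 329, in replicate order. Levels are given below as counts scaled to the library total (counts per 1000000, CPM), in which less of a miRNA and more of the other miRNAs cannot be told apart. A count of 3, the limit that a count of 0 allows, corresponded to between 0.752 and 7.58 CPM, and the exact intervals given for counts, shares and ratios of counts cover counting error only. A total of 430 miRNAs had at least 5 CPM in at least 3 libraries, among them all 5 members. The 4 other miRNAs listed for Müller glia, miR-204-5p, miR-9-5p, miR-30d-5p and miR-100-5p, all had counts in both fractions. Their summed level was 43419 to 45495 CPM in whole cells and 36749 to 56299 CPM in EV. The sum joins opposite directions. In the edgeR test described below, log2 fold changes of EV over whole cells were -1.90 for miR-204-5p and -0.81 for miR-30d-5p. They were 1.06 for miR-9-5p and 1.03 for miR-100-5p, and only miR-204-5p had an adjusted p below 0.05 (edgeR, 0.00872). The summed level of 7 blood cell miRNAs was 164 to 1163 CPM in whole cells, where 4 of the 7 had counts, and 1549 to 2312 CPM in EV, where all 7 had counts. For 4 neuronal and photoreceptor miRNAs the ranges were 227 to 333 and 1151 to 1218 CPM, with the neuronal miR-124-3p at 0 in every library. The sums of the blood list and of the neuronal and photoreceptor list were higher in every EV library than in any whole cell library. The share of all miRNAs with this separation was not counted. Among listed miRNAs past the filter, edgeR log2 fold changes were 10.7 for miR-451a (edgeR adjusted p = 0.012), 9.95 for miR-142-3p (0.00371) and 0.78 for miR-486-5p (0.487). They were 2.26 for miR-182-5p (edgeR adjusted p = 0.00872), 2.07 for miR-183-5p (0.0171) and 0.09 for miR-96-5p (0.985). Among all 430 miRNAs, 63 had an edgeR adjusted p below 0.05 with a higher level in EV. The part of these lists in the results below was not tested.

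The family was dominated by its guide strands in both fractions. In order of level, miR-125b-5p was followed by miR-125a-5p, miR-125b-2-3p, miR-125b-1-3p and miR-125a-3p in 5 of 6 libraries, and in EV replicate 3 only the miR-125b passenger strands exchanged places. None of the 5 members differed between EV and whole cells in the edgeR quasi-likelihood test after Benjamini-Hochberg adjustment over the 430 miRNAs, where 28.6% of all tested miRNAs passed. With DESeq2, 1 member passed (miR-125b-5p), against 35.5% of the tested miRNAs.

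miR-125b-5p, the guide strand made from both miR-125b genes, was measured at 100534, 114982 and 115967 CPM in whole cell replicates 1, 2 and 3, and at 21963, 56534 and 70113 CPM in EV replicates 1, 2 and 3. Every EV library lay below every whole cell library, a separation in this direction that 27.9% of the 430 miRNAs showed, and EV replicate 1 was the lowest. Among all miRNAs it ranked in place 2 in each whole cell library and in places 11, 6 and 5 in EV. The mean level was 110495 ± 8640 CPM in whole cells and 49536 ± 24826 CPM in EV (SD, n = 3). The edgeR log2 fold change of EV over whole cells was -1.19 (standard error 0.49, 95% interval -2.33 to -0.05), with an unadjusted p of 0.0433 and a Benjamini-Hochberg adjusted p of 0.124. DESeq2 gave -1.39 with an adjusted p of 0.0149. Over 16 settings of the analysis the fold change was below 0 in all 16 and the adjusted p lay between 0.00688 and 0.322, passing in 3. Without EV replicate 3, edgeR gave -1.71 with an adjusted p of 0.0412, in a fit where 30.7% of the 430 miRNAs passed.

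miR-125a-5p, the guide strand of the chromosome 19 gene, was measured at 29877, 45694 and 49458 CPM in whole cells and at 7857, 27148 and 36316 CPM in EV. The groups overlapped, since EV replicate 3 exceeded whole cell replicate 1. It ranked in places 8, 4 and 4 among the miRNAs of the whole cell libraries and in places 21, 9 and 9 in EV. The edgeR log2 fold change was -0.86 (standard error 0.59, 95% interval -2.24 to 0.51, adjusted p = 0.347), an interval that reaches from a 4.72-fold lower level in EV to a higher one.

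**Figure D1:**
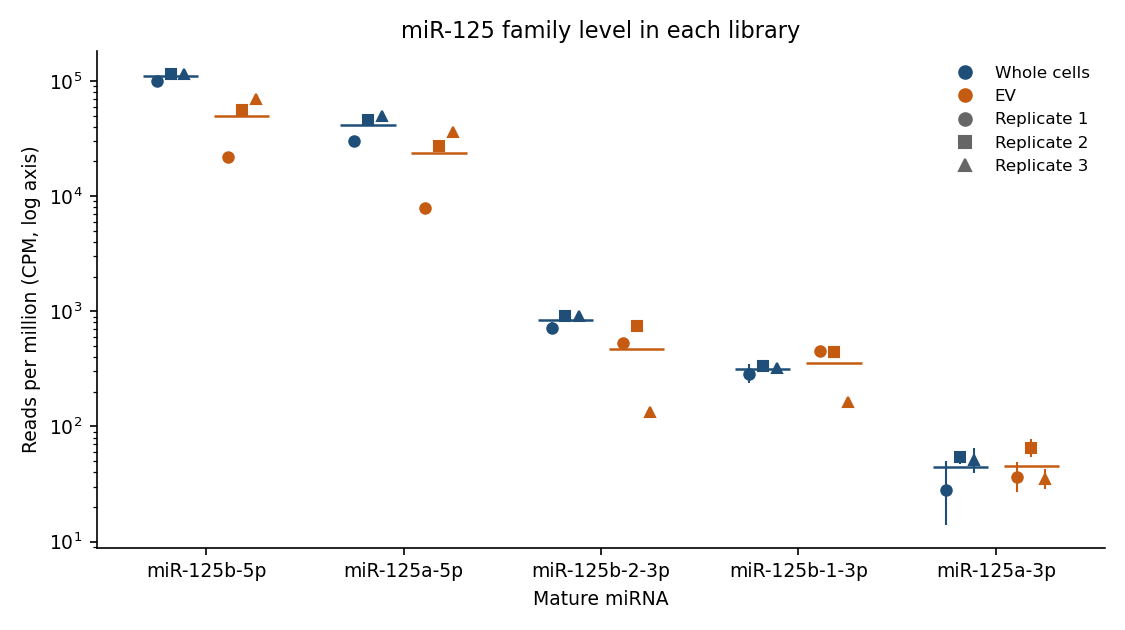
Level of each miR-125 family member in each library, in CPM on a log axis, with whole cells in blue and EV in orange; the marker shape gives the replicate, vertical lines are exact 95% counting intervals (hidden by the marker where narrow) and horizontal lines are group means. Only miR-125b-5p had all EV libraries below all whole cell libraries, and EV replicate 1 was the lowest library for both guide strands whereas EV replicate 3 was the lowest for both miR-125b passenger strands.

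miR-125b-2-3p, the passenger strand of the chromosome 21 gene, had 715, 905 and 904 CPM in whole cells and 530, 743 and 135 CPM in EV. EV replicates 1 and 3 lay below all whole cell libraries and EV replicate 2 lay among them. Its edgeR log2 fold change was -0.92 (standard error 0.58, 95% interval -2.29 to 0.44, adjusted p = 0.317). miR-125b-1-3p, from the chromosome 11 gene, was measured at 288, 336 and 324 CPM in whole cells and at 453, 444 and 161 CPM in EV. Here EV replicates 1 and 2 were above every whole cell library and EV replicate 3 was below them all, and the edgeR log2 fold change was 0.12 (standard error 0.52, 95% interval -1.09 to 1.34, adjusted p = 0.897). Its sign depended on the scaling, being -0.07 with the relative log expression factors of edgeR.

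miR-125a-3p was the scarcest member, with 27.8, 53.9 and 51.1 CPM in whole cells and 36.7, 65.2 and 35.1 CPM in EV. The first of these values rested on 11 reads, with an exact (Clopper-Pearson) 95% interval of 13.9 to 49.7 CPM, so that its position relative to EV replicates 1 and 3 was not resolved at this depth. The groups overlapped, and the edgeR log2 fold change was -0.05 (standard error 0.90, 95% interval -2.16 to 2.06, adjusted p = 0.981).

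The median edgeR log2 fold change over the 5 members was -0.86, with 4 of 5 below 0, compared with a median of -0.23 over all 430 miRNAs. That general median ranged from -0.41 to -0.22 with the scaling used. Relative to the median of -0.23, miR-125b-5p stood at -0.95, miR-125b-2-3p at -0.69 and miR-125a-5p at -0.63. On the same measure miR-125a-3p stood at 0.18 and miR-125b-1-3p at 0.36. Subtracting the median takes out most of what the scaling changes, so a change of scaling could not test these signs.

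Levels of 4 of the 5 members varied more between the EV libraries than between the whole cell libraries. The highest level of miR-125b-5p was 1.15 times the lowest in whole cells and 3.19 times in EV. The corresponding values were 1.66 and 4.62 for miR-125a-5p, 1.27 and 5.52 for miR-125b-2-3p, and 1.17 and 2.81 for miR-125b-1-3p. miR-125a-3p was the exception, at 1.94 and 1.86. A wider spread in EV was general, since the SD of log2(CPM + 4) was larger in EV for 302 of the 430 miRNAs (70.2%), with medians of 0.857 for EV and 0.496 for whole cell libraries. For miR-125b-5p these SDs were 0.891 and 0.116.

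Summed over both guide strands, the family took 13.0, 16.1 and 16.5% of all miRNA counts in whole cells and 2.98, 8.37 and 10.6% in EV. Every EV library was below every whole cell library, with means of 15.2 ± 1.90% and 7.33 ± 3.93% (SD, n = 3). The difference of -7.89 percentage points gave p = 0.1 in a two-sided exact permutation test, which is the smallest p that 3 libraries against 3 allow (0.2 after Benjamini-Hochberg adjustment over 4 such comparisons). miR-125b-5p made up most of the guide strand counts in every library and had the same separation by itself. Among single miRNAs, 27.9% of the 430 had a separation in this direction. The guide strand sum is therefore not independent of the result for miR-125b-5p. The 3 passenger strands together took 0.103, 0.129 and 0.128% in whole cells and 0.102, 0.125 and 0.0331% in EV. These ranges overlapped (two-sided exact permutation test, p = 0.2, adjusted 0.267), and EV replicate 3 had the lowest share.

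The balance between the guide strands was also compared, since both carry the same seed. There were 3.36, 2.52 and 2.34 reads of miR-125b-5p for each read of miR-125a-5p in whole cells, and 2.80, 2.08 and 1.93 in EV. The groups overlapped, and the mean log2 ratio was 1.44 ± 0.28 in whole cells and 1.16 ± 0.28 in EV (SD, n = 3, two-sided exact permutation test, p = 0.3). Set against the whole cell library 1 passage earlier, each EV library had the lower log2 ratio, with differences of -0.27 at passage 23, -0.27 at passage 25 and -0.28 at passage 27. This arrangement was chosen after the values were seen and was not tested, and no source used here says that libraries of adjacent passages share a culture. Arranged in the same way, the other ratios described below spread more widely. All differences were below 0 for miR-125b-2-3p to miR-125b-1-3p and for miR-125b-5p to miR-100-5p, miR-99a-5p and let-7c-5p. Signs were mixed for miR-125a-5p to let-7e-5p (-0.96, 0.98 and 1.34), miR-125a-5p to miR-99b-5p and miR-125b-5p to let-7a-5p. A read that ends within the 13 shared bases could belong to either guide strand, and how the aligner placed such reads is not given in the sources used here.

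The amount of passenger strand per guide strand does not depend on the library total. In whole cells there were 0.930, 1.18 and 1.03 reads of miR-125a-3p per 1000 reads of miR-125a-5p, and in EV there were 4.67, 2.40 and 0.966. miR-125b-1-3p stood at 2.86, 2.92 and 2.80 per 1000 reads of miR-125b-5p in whole cells and at 20.6, 7.85 and 2.30 in EV. For miR-125b-2-3p the values were 7.11, 7.87 and 7.80 in whole cells and 24.1, 13.1 and 1.92 in EV. In all 3 pairs EV replicate 1 had the most passenger strand and EV replicate 3 the least, and in EV replicate 3 the value fell below the whole cell libraries for both miR-125b pairs. The groups therefore overlapped for each pair, whereas every EV library was above every whole cell library for 26% of the 123 arm pairs measured.

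**Figure D2:**
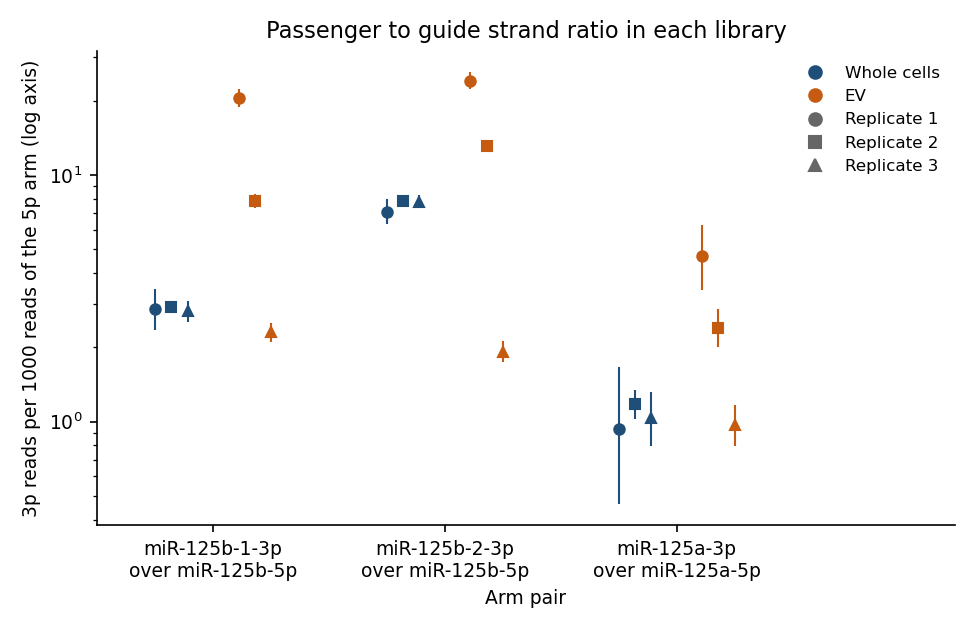
Reads of the 3p arm per 1000 reads of the 5p arm in each library, on a log axis, with whole cells in blue and EV in orange; the marker shape gives the replicate and vertical lines are exact 95% counting intervals. The whole cell libraries lie close together for the miR-125b pairs, and the EV libraries run from 20.6 to 2.30 for miR-125b-1-3p and from 24.1 to 1.92 for miR-125b-2-3p.

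A limma fit over the log2 ratios of the 123 arm pairs gave no passing difference for the family, while 25.2% of the pairs passed. The difference of EV minus whole cells was 1.33 for miR-125b-1-3p over miR-125b-5p (standard error 0.74, 95% interval -0.28 to 2.94, limma adjusted p = 0.212). It was 1.09 for the miR-125a pair (-1.17 to 3.34, limma adjusted p = 0.434) and 0.16 for miR-125b-2-3p over miR-125b-5p (-1.52 to 1.85, limma adjusted p = 0.904). The outcome depended on which EV library was left out. Without EV replicate 3, limma gave 2.15 for the miR-125b-1 pair (adjusted p = 0.0155) and 1.23 for the miR-125b-2 pair (adjusted p = 0.0498), and 1.68 for the miR-125a pair, which did not pass, but in that fit 32.5% of all pairs passed. Without EV replicate 1 the differences were 0.57 for the miR-125b-1 pair, 0.54 for the miR-125a pair and -0.59 for the miR-125b-2 pair, and without EV replicate 2 the miR-125b-2 pair stood at -0.15, none of which passed. The miR-125b pairs share a 5p count and are not independent of each other.

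The whole cell libraries agreed closely in the ratios of the miR-125b pairs. The range of the log2 ratio over 3 whole cell libraries was 0.06 for the miR-125b-1 pair, 0.15 for the miR-125b-2 pair and 0.32 for the miR-125a pair, against a median range of 1.44 over the 123 pairs. In EV the ranges were 3.16, 3.64 and 2.27, against a median of 3.60. The EV range was the wider one in 99 of 123 pairs (80.5%), those of the family included. Ranges of abundant pairs are less affected by counting error than those of scarce ones, and no matching for abundance was made. For the miR-125a pair, whole cell replicate 1 rested on 11 reads of miR-125a-3p. Its exact 95% interval was 0.464 to 1.66 per 1000, so agreement between whole cell libraries was not resolved for this pair.

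**Figure D3:**
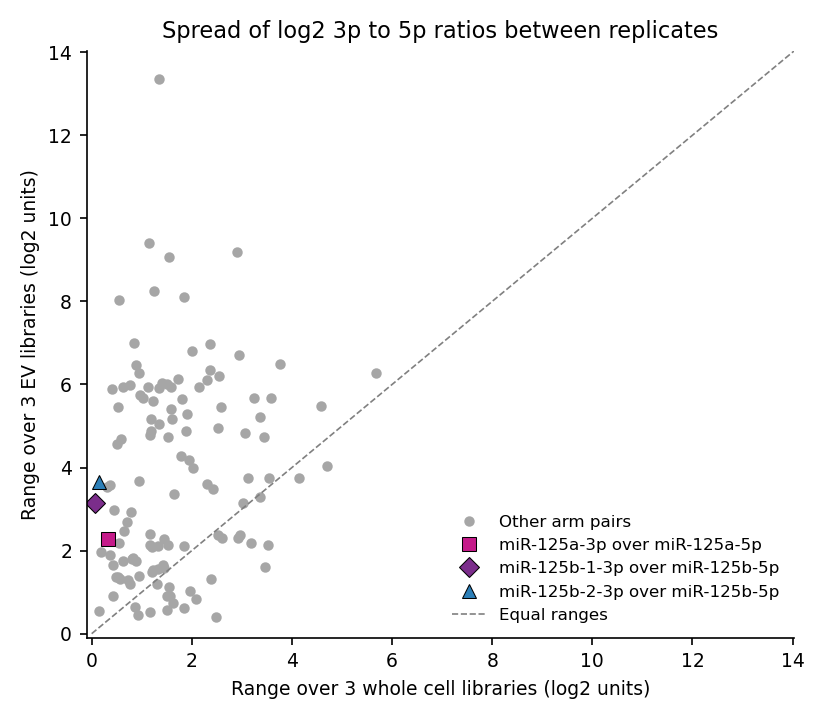
Range (highest minus lowest library) of the log2 3p to 5p ratio over the 3 whole cell libraries on the horizontal axis and over the 3 EV libraries on the vertical axis, for 123 arm pairs. The miR-125 pairs sit at the left edge, with whole cell ranges of 0.06 to 0.32, and above the dashed line of equal ranges, with EV ranges of 2.27 to 3.64.

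As the miR-125b-5p row joins both genes, the miR-125b passenger strands were the only members that tell these genes apart, and their ratio was compared. Their 3p to 5p ratios varied 8.92-fold (miR-125b-1-3p) and 12.5-fold (miR-125b-2-3p) between EV libraries. The part of gene of origin and of passenger strand amount in the ratio was not tested. miR-125b-2-3p had 2.48, 2.70 and 2.79 reads per read of miR-125b-1-3p in whole cells, and 1.17, 1.67 and 0.834 in EV. All EV libraries lay below all whole cell libraries. Expressed as a share of the reads of both arms, miR-125b-2-3p made up 71.3, 72.9 and 73.6% in whole cells and 53.9, 62.6 and 45.5% in EV. The exact 95% intervals were separate between groups, the nearest being 66.6 to 75.7% in whole cell replicate 1 and 60.6 to 64.5% in EV replicate 2. The mean log2 ratio was 1.41 ± 0.09 in whole cells and 0.24 ± 0.50 in EV (SD, n = 3), a difference of -1.17, or a 2.25-fold lower ratio. A two-sided exact permutation test gave p = 0.1, the smallest that the design allows, and 0.2 after Benjamini-Hochberg adjustment over the 4 comparisons. Ratios that separate the groups completely were frequent here, in 46.5% of all pairs of the 430 miRNAs in either direction.

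**Figure D4:**
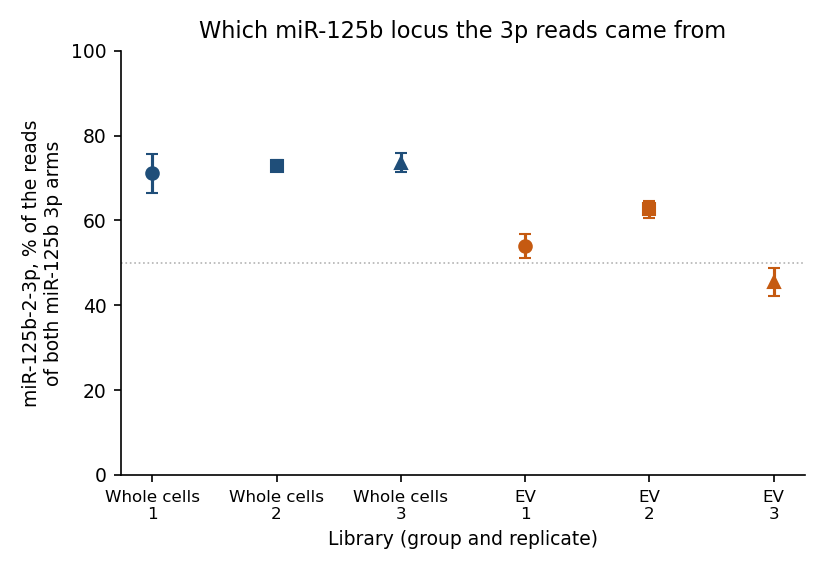
Reads of miR-125b-2-3p as a percentage of the reads of both miR-125b passenger strands in each library, with exact 95% binomial intervals; the dotted line marks equal reads of both arms. Whole cell libraries lie at 71.3 to 73.6% and EV libraries at 45.5 to 62.6%.

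The miRNAs encoded beside each member were examined next, because neighbouring hairpins can be cut from one primary transcript. MIR125A is 389 bases from MIRLET7E and 572 bases from MIR99B. MIR125B1 lies 46677 bases from MIRLET7A2 and 52384 bases from MIR100, and MIR125B2 lies 50325 bases from MIRLET7C and 51067 bases from MIR99A, each on the same strand. Of the 12 arms that these neighbours produce, 11 passed the filter and 1, miR-100-3p, did not. Their median log2 fold change was -0.68, with 7 of 11 below 0, and 1 of 11 passed. Over all 430 miRNAs the median was -0.23, 232 were below 0 and 28.6% passed.

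The neighbour that passed was let-7e-5p, a let-7 guide strand encoded next to miR-125a. It was measured at 9767, 16011 and 17139 CPM in whole cells and at 4981, 4812 and 4965 CPM in EV. The groups were therefore separate, in a direction that 27.9% of the 430 miRNAs showed. With edgeR it stood at -1.57 on the log2 fold change scale (standard error 0.40, adjusted p = 0.0213), and it passed in 4 of 6 fits with 1 library left out, not without whole cell replicate 2 or 3. miR-125a-5p had 3.06, 2.85 and 2.89 reads per read of let-7e-5p in whole cells and 1.58, 5.64 and 7.31 in EV. The EV ratios lay on both sides of the whole cell ones (two-sided exact permutation test, p = 0.4). For miR-99b-5p, the third guide strand of this cluster, the edgeR log2 fold change was -0.83 (adjusted p = 0.333), close to the -0.86 of miR-125a-5p. Single libraries did not keep the ratio of these guide strands. miR-125a-5p had 7.21, 4.43 and 4.92 reads per read of miR-99b-5p in whole cells and 1.69, 8.66 and 5.83 in EV. EV replicate 1 lay below and EV replicate 2 above all whole cell libraries (two-sided exact permutation test, p = 0.9).

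The miR-99 family guide strands beside the miR-125b genes had positive fold changes, which shrank or changed sign without EV replicate 1. miR-100-5p stood at 1.03 (edgeR adjusted p = 0.192) and miR-99a-5p at 1.28 (edgeR adjusted p = 0.243), neither of which passed. miR-99a-5p was measured at 5277, 3109 and 2646 CPM in whole cells and at 17087, 3540 and 3787 CPM in EV, and without EV replicate 1 its log2 fold change was -0.11 and that of miR-100-5p was 0.21. There were 11.8, 17.1 and 20.1 reads of miR-125b-5p per read of miR-100-5p in whole cells, and 0.975, 7.36 and 6.99 in EV. Per read of miR-99a-5p there were 19.0, 37.0 and 43.8 in whole cells and 1.29, 16.0 and 18.5 in EV. Both ratios were lower in every EV library than in any whole cell library, with a mean log2 difference of -2.11 in each, and EV replicate 1 was the lowest in each (two-sided exact permutation test, p = 0.1, and 0.3 after Benjamini-Hochberg adjustment over 6 ratios to neighbours). Without EV replicate 1, a setting added after seeing the data, the differences were -1.15 for miR-100-5p and -0.87 for miR-99a-5p. Complete separation of a ratio was frequent, as given for the passenger strands.

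The let-7 guide strands beside the miR-125b genes did not separate from miR-125b-5p in this way. Reads of miR-125b-5p per read of let-7c-5p were 3.67, 6.19 and 5.45 in whole cells and 0.575, 4.02 and 3.19 in EV, with EV replicate 2 above whole cell replicate 1 (two-sided exact permutation test, p = 0.2). Per read of let-7a-5p, which is also encoded elsewhere in the genome, they were 0.616, 0.863 and 1.10 in whole cells and 0.196, 0.998 and 0.960 in EV, which overlapped (two-sided exact permutation test, p = 0.8).

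**Figure D5:**
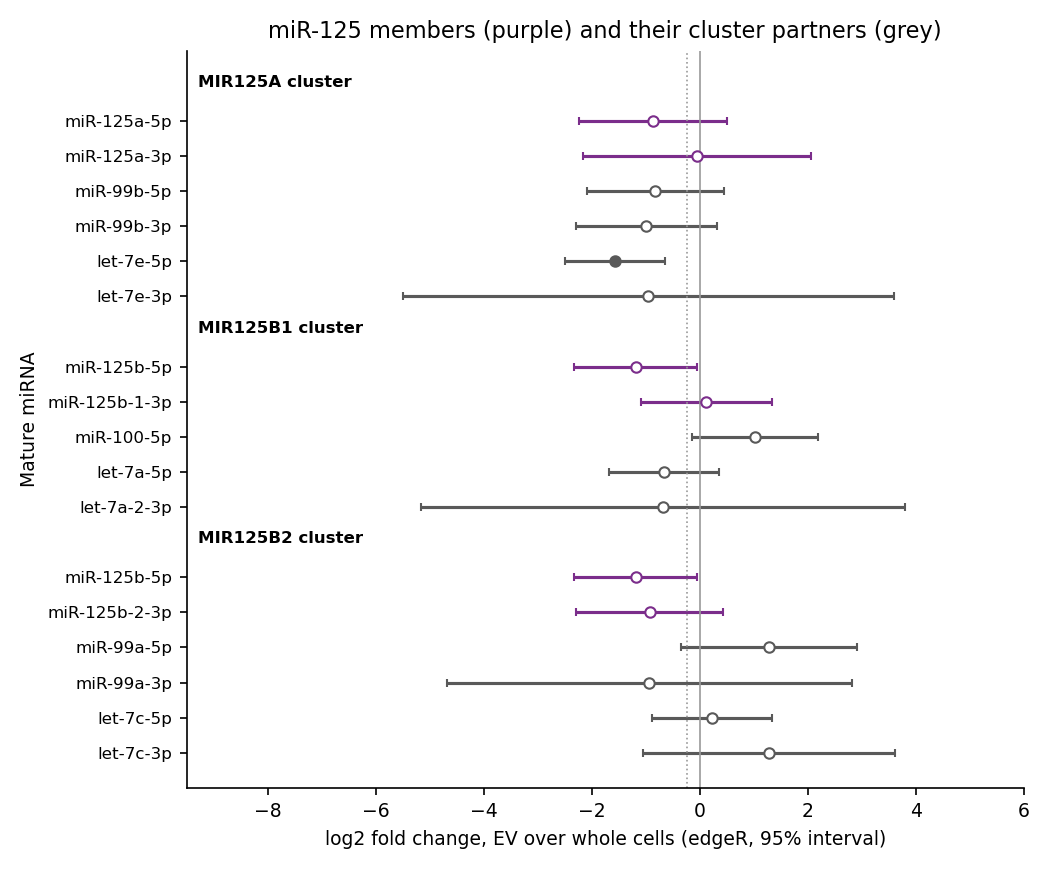
edgeR log2 fold change of EV over whole cells with its 95% interval for the miR-125 members (purple) and the 11 neighbours past the filter (grey), grouped by gene cluster; filled points passed at an adjusted p below 0.05, the solid line is 0 and the dotted line is the median of all 430 miRNAs (-0.23). Only let-7e-5p is filled, and miR-125b-5p is drawn in both clusters that encode it.

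Levels were also correlated over the 6 libraries among 191 miRNAs with a mean of at least 100 CPM. The scale was log2(CPM + 4), with CPM here adjusted by the TMM scaling factors of edgeR. The level of miR-125b-5p ran most closely with miR-485-3p (Pearson r = 0.982), miR-125a-5p (0.955) and miR-409-3p (0.952). For miR-125a-5p the closest were miR-125b-5p (0.955), miR-485-3p (0.951) and miR-409-3p (0.926). These coefficients describe 6 libraries in 2 groups that share their group difference and their library depth, and no test was applied.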

How the data were processed

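Small RNA libraries from 3 whole cell and 3 EV samples were analysed. The deposited tables hold raw counts per mature miRNA, which the authors made with featureCounts 1.5.0-p1 (strand setting 1, no option for multi-mapping reads) and a miRBase 20 annotation after Bowtie 1 alignment, per the file headers. The processing notes name Bowtie2 and cutadapt instead, and whether the molecular identifiers of the library kit were used is not given in the sources used here. The headers name no genome build, and the start positions given with the counts equalled those of GRCh38 in only 15 of 2432 RefSeq entries compared. Positions printed here are therefore those of RefSeq GRCh38.p14 and of GENCODE 29. From the counts, CPM on the column total, TMM factors and a quasi-likelihood test were computed with edgeR 4.0.16 in R 4.3.3, for miRNAs that reached 5 CPM in 3 or more of the 6 libraries. Passing means a Benjamini-Hochberg adjusted p below 0.05 over 430 miRNAs. Arm ratios (both arms past the filter, prior count 2) were tested with limma 3.58.1 over 123 pairs, and shares and single ratios (counts plus 0.5) with exact permutation tests in scipy 1.17.1. DESeq2 1.42.0, other scalings, filters and pseudocounts, thinning to the smallest total and leaving out each library were the alternatives. The edgeR, DESeq2 and limma fits of single miRNAs were tested on simulated data with 200 changed miRNAs, and the arm ratio fit with fewer changed 3p arms. The permutation tests and the remaining steps were not part of this. The members, neighbour lists, context lists and tests were chosen with earlier results of these data known, and the text names the 5 members, their 12 neighbours, miRNAs that share a seed with them, and the 3 miRNAs most correlated with each guide strand. p-values measure the spread between passages of 1 cell line.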

Additional observations from a re-analysis of the deposited data

How the results depend on the processing

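No paired test was made, because the groups share no passage and the replicate numbers were given in accession order. In addition, no label ties a cell library to an EV library. Of the 430 miRNAs, 123 passed, against 240 with no filter on low counts, 25 when an adjusted p below 0.01 had to go with a fold of 2.5 or more on the log2 scale, and 74 to 143 when 1 library was left out (74 without whole cell replicate 2 and 81 without whole cell replicate 3). RLE factors put 44.6% of the calls in the higher direction, against 51.2% with TMM. The 31 passing arm pairs became 15 with both arms at 5 CPM in all libraries, and 21 to 40 with 1 library left out. The neighbours passing, 1 at first, were 2 with no filter, 0 with either fold limit and 0 to 3 with 1 library left out. The log2 fold change of miR-125b-5p passed with no filter (-1.36, adjusted p = 0.00688 from edgeR), with DESeq2 (-1.39) and without EV replicate 3 (-1.71), and lay between -1.71 and -0.98 with 1 library left out. miR-125a-3p changed sign with library totals (0.0405), 5 CPM in all libraries (0.0235) and limma with a pseudocount of 4 (0.0369) or 1 (0.0472), and lay between -0.48 and 0.15 with 1 library left out. miR-125b-1-3p changed sign with RLE factors (-0.0716), no filter (-0.14), DESeq2 (-0.0733) and thinned counts (-0.0763), and lay between -0.30 and 0.35 with 1 library left out. miR-125a-5p (-1.51 to -0.59) and miR-125b-2-3p (-1.36 to -0.59) kept their direction without each library, as did the arm ratios of miR-125a (0.54 to 1.68) and miR-125b-1 (0.57 to 2.15), while that of miR-125b-2 ran from -0.59 to 1.23 and was below 0 without EV replicate 1 or 2. Without EV replicate 1, looked at for these neighbours after seeing the data, the log2 fold change of miR-99a-5p turned to -0.11 and that of miR-100-5p was 0.21. The guide strand share differed by -12.5 percentage points when the let-7 guide strands were left out of the total, and by -9.54 to -5.71 without each library. Without each library the passenger share differed by -0.0526 to -0.00654 percentage points, the log2 ratio of miR-125b-5p to miR-125a-5p by -0.43 to -0.12, and that of miR-125b-2-3p to miR-125b-1-3p by -1.42 to -0.92. The cause of these changes was not tested. Whole cell replicate 1, with 396025 counts, was the shallowest library and limits what can be said of miR-125a-3p, which had 11 reads in it.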

Other observations

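The forward primer that the study lists for its RT-qPCR assay of miR-125b-5p was compared with the RefSeq sequences of both guide strands. In 5′ to 3′ direction, with the part that matches miR-125b-5p in capitals, it reads:
primer: cagTCCCTGAGACCCTA
Its 3′ end holds the first 14 bases of miR-125b-5p as DNA, of which the first 13 are shared by miR-125a-5p. The target sequence listed beside this assay was identical to miR-125a-5p in RefSeq and not to miR-125b-5p. Which guide strand the assay amplified was not tested, and the library counts above do not depend on it.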
